A study of Mus musculus with 24 samples.

Results

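Day 10 of chronic social defeat stress (CSDS) was set against days 4 and 7 in the lateral septum of defeated mice. The comparison takes 3 libraries from defeated mice on day 10 and 6 from defeated mice on days 4 and 7, which is 9 of the 24 libraries of the study, chosen by their labels. All mice were male C57BL/6J, labelled as 8 to 14 weeks old. Defeated mice met an aggressive CD-1 mouse for 10 min a day and were then kept behind a plexiglass barrier until the next session. Controls of each day were age-matched and never defeated, and the same change between days in the 9 control libraries of days 4, 7 and 10 was measured beside it. The labels name no allele or transgene in any group. The other 6 libraries are of day 1, defeated and control, enter the estimate of spread and are in no comparison, and a few of their values are given beside the others. Each library holds poly(A) RNA from lateral septum tissue, with 3 libraries a group. The labels do not say that each library is a separate animal, so p-values measure the spread between libraries, which may in part be technical.

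The lateral septum is a forebrain nucleus made mainly of GABA neurons, which receives hippocampal input and projects to the hypothalamus, and it is known for its part in fear, aggression and stress responses. Immediate early genes such as Fos and Egr1 are transcribed within minutes of neuronal activity and need no new protein to start. Repeated defeat is a standard mouse model of social stress, and the question here is which genes differ late in the course from the middle of the course, and which of these differences the undefeated mice do not share.

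Total counts ran from 31182747 to 41205354 per library, and 18060 of 28859 genes passed the filter on low counts. Among 10121 genes above 10 CPM (read counts scaled to library size with edgeR's TMM factors) the median standard error (SE) of the log2 change in defeated mice was 0.0783. Lateral septum neuron markers were present in each of the 9 defeated libraries, with Zic2, a transcription factor of septal neurons, at 109 to 144 CPM on days 4 and 7 and 186 to 209 on day 10, and the vesicular GABA transporter Slc32a1 at 272 to 378 and 359 to 454 CPM. Choroid plexus RNA varied between libraries. Ttr, its most abundant transcript, stood at 37.5, 6297 and 23.6 CPM in the 3 defeated libraries of day 10 and at 7.98 to 3162 on days 4 and 7. Control replicate 1 of day 10 stood apart, with 6.03% of its counts on the unnamed locus LOC118568312, against at most 0.0939% in any other library. Without it, 4984 genes were called in controls in place of 5849, and none in the test of the difference between defeated mice and controls.

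In defeated mice, 7440 genes (41.2% of those tested) changed between day 10 and the mean of days 4 and 7 at an adjusted p under 0.05 in edgeR's quasi-likelihood test, 3887 of them higher (21.5%) and 3553 lower (19.7%). The falls were the deeper. Of 984 genes that differed by more than 1 on the log2 scale, 899 were lower and 85 higher on day 10. In 6708 genes (37.1%) the 3 libraries of day 10 did not overlap the 6 of days 4 and 7. Each reference day alone gave a like count, with 6385 genes (35.4%) called against day 4 and 6241 (34.6%) against day 7, which share the libraries of day 10. Day 7 against day 4 gave 0 calls in edgeR (0%), 945 genes (5.23%) at an unadjusted p under 0.05, and 1 call in DESeq2.

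The controls changed in a like way without any defeat. From the same days, 5849 genes (32.4%) were called in controls, 2778 higher (15.4%) and 3071 lower (17%), and 4678 genes (25.9%) did not overlap. At an unadjusted p under 0.05 it was 7677 genes (42.5%), against 8700 (48.2%) in defeated mice. Of the genes called, 4431 were called in the same direction in both, 2020 higher and 2411 lower, which is 59.6% of the calls in defeated mice and 75.8% of those in controls. Of the 7440 genes called in defeated mice, 7129 (95.8%) had the same sign in controls, against 78.9% of all genes tested. Across the 18060 genes the 2 sets of log2 changes, which share no library, correlated with Pearson's r = 0.619 and Spearman's rho = 0.641, a description over genes that are not independent replicates. The test of the difference itself called 3 genes (0.0166%), 1 with a higher change in defeated mice (0.00554%) and 2 with a lower one (0.0111%), and 1959 genes (10.8%) had an unadjusted p under 0.05. Against day 4 alone 4 genes were called (0.0221%), and against day 7 alone 0, with 1444 (8%) at an unadjusted p under 0.05. A further 3000 genes were called in defeated mice and not in controls, 1860 higher and 1140 lower. Of all 7440 genes called in defeated mice, Egr1 and 1700040D17Rik passed the test of the difference, whose median SE was 0.111.

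**Figure D1:**
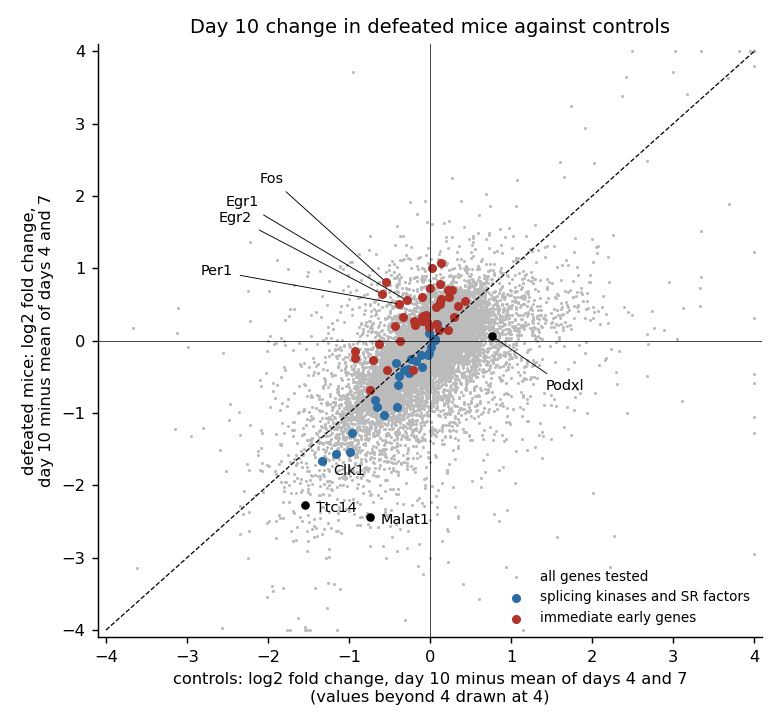
Each grey point is one of 18060 genes, with its log2 fold change on day 10 against days 4 and 7 in controls on the horizontal axis and in defeated mice on the vertical axis, and the dashed line marks equal change. Splicing kinases and SR factors (blue) lie near the line in the lower left, and most immediate early genes (red) lie above it.

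The change ran with the base composition of the transcripts. The comparison covers 14905 protein-coding genes with a transcript in the annotation. In defeated mice the log2 change had a Spearman correlation of 0.613 with the GC content of the longest coding transcript. With gene length, as implied by the deposited FPKM (counts scaled for gene length and counted reads), it was -0.327. In controls these were 0.537 and -0.353. In the quintile of genes with the lowest GC content, 32.62 to 44.38%, 57.7% were lower on day 10 and 1.71% higher in defeated mice. In the quintile with the highest, 56.09 to 72.82%, 49.6% were higher and 2.65% lower. The controls gave 55.7% lower in the first and 33.3% higher in the last. The difference between defeated mice and controls ran less with GC content, at 0.164, and not with length, at 0.00621. Every library of days 4 and 7 had a negative slope of expression on GC content, from -0.22 to -0.0794 log2 units per 10 points, and every library of day 10 a positive one, from 0.0961 to 0.251, in both groups. Day 1 libraries were positive too, at 0.0502 to 0.212. With each library's trend on GC content removed, an alternative chosen after seeing the data, 4584 genes were called in defeated mice, 3345 of them among the 7440, and 3434 in controls. A GC content was at hand for 90.8% of the genes in that fit. Day of defeat, age and any shared handling of a day's libraries cannot be told apart in this design.

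**Figure D2:**
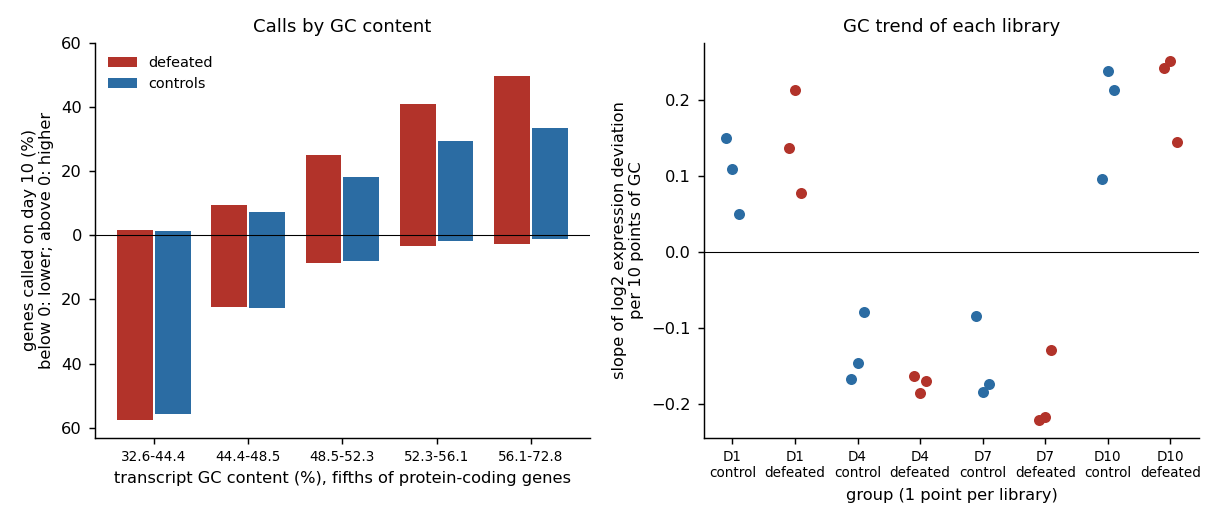
On the left, bars give the percent of protein-coding genes called higher (above 0) or lower (below 0) on day 10 in each quintile of transcript GC content, for defeated mice and controls. On the right, each point is one library's slope of log2 expression on GC content, positive on days 1 and 10 and negative on days 4 and 7.

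Among immediate early genes, far more rose than fell on day 10 in defeated mice. Of 40 tested, 22 were higher and 1 lower in defeated mice, with a median log2 change of 0.33 beside 0.02 over all genes. In controls 3 were higher and 7 lower, with a median of -0.07. Over all genes tested, 21.5% were higher and 19.7% lower in defeated mice, and 15.4% and 17% in controls. Counts of this list and those below are to be read beside these shares. The difference between the changes lay above 0 in 38 of 40 (95%), against 52.8% of all genes, with a median of 0.43, but 1 of the 40, Egr1, passed its test. The list has a median transcript GC content of 54.9%, against 50.1% over all genes, and with the GC trend removed 13 were higher and 0 lower in defeated mice and 1 higher and 8 lower in controls. Leaving out 1 library of the 9 at a time gave 16 to 23 higher. Without control replicate 1 of day 10, 2 of the list were higher and 4 lower in controls, and the median turned to 0.05. The mean log2 CPM of the list was 3.74 to 3.84 in defeated mice on day 4, 3.44 to 3.67 on day 7 and 3.99 to 4.02 on day 10. Day 10 did not overlap days 4 and 7. In controls it was 4.14 to 4.2 on day 4, 3.67 to 3.94 on day 7 and 3.62 to 3.96 on day 10. Of these days, day 4 was the highest in controls. Day 1 libraries stood higher still, at 4.67 to 4.92 in controls, and at 4.04 to 4.49 in defeated mice. Markers of cortical and hippocampal excitatory neurons, which also express these genes, had 5 of 17 higher and 1 lower in defeated mice. That count was 3 higher without replicate 2 of day 10 or of day 7, and 8 without replicate 1 of day 7. The markers' mean log2 CPM was 3.53 to 4.95 on day 10, 4.09 to 4.27 on day 4 and 3.03 to 4.37 on day 7. These ranges overlap. In replicates 1, 2 and 3 of day 10 it was 4.51, 4.95 and 3.53, where the immediate early list stood at 4.01, 3.99 and 4.02. With choroid plexus and cortex scores as covariates 20 immediate early genes were higher and 4 lower in defeated mice.

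Egr1, a zinc-finger transcription factor used as a marker of neuronal activity, was the immediate early gene whose change differed between defeated mice and controls. Its level in the defeated libraries was 148, 138 and 129 CPM on day 4, 114, 113 and 121 on day 7 and 181, 176 and 201 on day 10. The day 10 libraries lie above all 6 of the earlier days, a change of 0.56 (SE 0.10, edgeR adjusted p = 0.000116) on the log2 scale. Controls stood at 234, 242 and 219 CPM on day 4, 146, 136 and 139 on day 7 and 119, 157 and 166 on day 10. Of these days, day 4 was the highest, and days 7 and 10 overlap. On day 1 controls stood higher, at 294, 365 and 296 CPM, and defeated mice at 224, 231 and 168. The change in controls from days 4 and 7 to day 10 was -0.29 (SE 0.10, edgeR adjusted p = 0.0319). The difference between the 2 changes was 0.85 (SE 0.14, edgeR adjusted p = 0.0356). Against day 4 alone that difference was 1.08 (SE 0.16, edgeR adjusted p = 0.01) and against day 7 alone 0.61 (SE 0.16, edgeR adjusted p = 0.457), both chosen after seeing the data. Without control replicate 1 of day 10, the lowest of its group, it was 0.71 (edgeR adjusted p = 0.118).

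Fos, the classic activity marker, had 19.5, 11.4 and 16.5 CPM on day 10 in defeated mice and 7.04, 8.94 and 10.6 CPM as the lowest, median and highest of days 4 and 7. All 3 day 10 libraries lie above the 6 others, by 0.81 (SE 0.24, edgeR adjusted p = 0.00979). In controls the day 10 libraries had 6.77, 11.6 and 17.2 CPM, within the 10.1 to 26.6 CPM of days 4 and 7 except for the lowest. The difference of 1.36 did not pass the test (edgeR adjusted p = 0.207).

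Further transcription factors of the group were called higher in defeated mice. Egr4 had 24.4, 21.6 and 24.9 CPM on day 10 against 9.78, 10.7 and 13.1 before, a rise of 1.08 (SE 0.15, edgeR adjusted p = 1.24e-05) with no overlap. Junb, a partner of Fos in the AP-1 complex, had 36.9, 28.5 and 29.9 CPM against 11.4, 16.3 and 18.9, a rise of 1.00 (SE 0.20, edgeR adjusted p = 0.000439). In day 10 controls Egr4 had 12.29, 20.06 and 21.76 CPM, against 12.52 to 22.05 on days 4 and 7. Junb had 12.16, 28.25 and 32.2 CPM there, against 17.33 to 33.55. Neither gene passed the test of the difference. Egr2 had 4.19, 3.11 and 4.46 CPM against 1.68, 2.38 and 3.49, and its libraries overlap, although it was called at 0.64 (SE 0.21, edgeR adjusted p = 0.0168). In controls Egr2 fell by 0.60 (edgeR adjusted p = 0.0373), and the difference had an adjusted p of 0.194.

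Effectors and regulators of the same group differed among themselves. Arc, which acts in the turnover of AMPA receptors at synapses, had 104, 81.7 and 108 CPM on day 10 against 56.1, 58.7 and 62.5, a rise of 0.73 (SE 0.13, edgeR adjusted p = 0.00018), while its change in controls was 0.00. The difference for Arc did not pass its test. Trib1, a pseudokinase, rose by 0.61 (SE 0.11, edgeR adjusted p = 0.000139), Sik1, a salt-inducible kinase, by 0.51 (SE 0.08, edgeR adjusted p = 3.19e-05), and Gadd45g, a growth arrest gene, by 0.60 (SE 0.10, edgeR adjusted p = 5.92e-05). Jund rose in both, by 0.54 in defeated mice and 0.42 in controls. Nr4a1, an orphan nuclear receptor, was not called, at 0.20 (edgeR adjusted p = 0.431), with 20.8, 26.2 and 21.2 CPM on day 10. Homer1, whose short form is activity-induced, is the member called lower, at -0.41, and fell in controls by 0.53. Per1 belongs both to this list and to the clock, and had 74.5, 74.5 and 84.6 CPM on day 10 against 47.6, 56.2 and 59.2 in the earlier defeated libraries, all of them lower, a rise of 0.51 (SE 0.13, edgeR adjusted p = 0.00392).

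**Figure D3:**
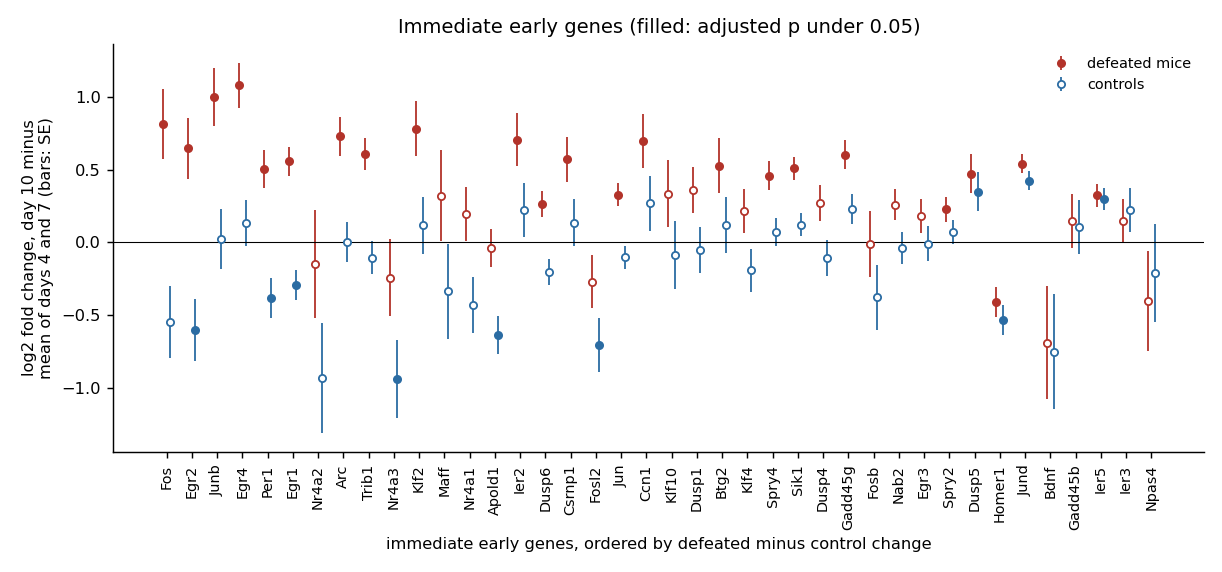
Log2 fold change of each of 40 immediate early genes on day 10 against days 4 and 7, in defeated mice (red) and controls (blue), with SE bars and filled points where the adjusted p was under 0.05. Genes are ordered by the difference, largest at left, and 22 red points are filled above 0 against 3 blue.

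Promoters are given for the 5 immediate early genes with the largest differences among members of that list called higher in defeated mice. The sequence of Egr1 is not shown. Many immediate early promoters hold the cAMP response element (CRE) bound by CREB. Each line is the 250 bases before the gene's first listed start in RefSeq on GRCm38.p6, while the counts were made on GRCm39. Capitals mark matches, on either strand, to 6 motifs searched: the CRE half-site TGACG, the full CRE TGACGTCA that contains it, the E-box CACGTG, the EGR site GCGGGGGCG, the heat shock element GAANNTTC and the CArG box.
Fos at chr12:85473640-85473889 (+): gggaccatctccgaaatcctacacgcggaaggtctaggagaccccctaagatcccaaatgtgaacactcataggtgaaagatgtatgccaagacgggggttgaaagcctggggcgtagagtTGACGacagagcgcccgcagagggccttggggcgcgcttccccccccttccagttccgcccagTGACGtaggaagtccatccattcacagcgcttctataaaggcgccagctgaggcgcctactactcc
Egr2 at chr10:67535249-67535498 (+): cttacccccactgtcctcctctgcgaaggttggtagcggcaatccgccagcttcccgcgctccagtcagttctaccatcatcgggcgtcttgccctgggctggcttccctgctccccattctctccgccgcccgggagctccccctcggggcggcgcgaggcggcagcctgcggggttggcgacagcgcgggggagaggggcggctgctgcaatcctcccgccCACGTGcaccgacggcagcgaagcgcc
Junb at chr8:84978749-84978998 (-): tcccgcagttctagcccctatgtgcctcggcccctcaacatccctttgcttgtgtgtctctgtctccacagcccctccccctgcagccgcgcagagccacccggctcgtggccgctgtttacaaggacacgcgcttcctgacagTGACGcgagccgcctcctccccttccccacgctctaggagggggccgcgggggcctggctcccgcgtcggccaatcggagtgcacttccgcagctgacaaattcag
Egr4 at chr6:85513590-85513839 (-): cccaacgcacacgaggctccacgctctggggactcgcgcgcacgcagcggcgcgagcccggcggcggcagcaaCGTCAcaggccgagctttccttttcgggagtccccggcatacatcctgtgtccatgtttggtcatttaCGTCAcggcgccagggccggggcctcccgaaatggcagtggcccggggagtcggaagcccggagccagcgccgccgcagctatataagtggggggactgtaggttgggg
Per1 at chr11:69098699-69098948 (+): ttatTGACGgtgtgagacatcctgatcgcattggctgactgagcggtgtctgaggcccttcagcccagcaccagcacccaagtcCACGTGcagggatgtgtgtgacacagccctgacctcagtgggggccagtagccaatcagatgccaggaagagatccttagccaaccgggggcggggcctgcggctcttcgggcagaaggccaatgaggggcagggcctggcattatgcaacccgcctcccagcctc
Fos and Egr4 show 2 half-sites each, Junb and Per1 show 1, and Egr2 shows none in this window. None of the 5 windows holds the full CRE, and Egr2 and Per1 hold an E-box. Of the list, 31 of 40 genes matched the promoter table, and 18 of them (58.1%) hold a half-site in the first window, against 17.9% of all 27018 genes. Among 16 matched members called higher in defeated mice it was 9 (56.2%), so the share is alike in those that rose and in the list. The other motifs were in 6.45% (CRE), 19.4% (E-box), 16.1% (EGR site), 9.68% (heat shock element) and 3.23% (CArG box) of the list and in 1.62%, 6.05%, 2.56%, 6.78% and 1.4% of all genes. A match is a description of the letters and not a bound site.

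Besides Egr1, the test of the difference called 2 genes, both with a lower change in defeated mice. Podxl, which encodes a sialomucin of blood vessel lining and of neurons, had 55.2, 61 and 55.7 CPM on day 10 in defeated mice against 50.3, 53.5 and 63.9 before, with overlap and a change of 0.06 (SE 0.08, edgeR adjusted p = 0.576). In controls it had 70.7, 68.5 and 72 CPM against 32.4, 41.5 and 52.4, all 3 above the 6 earlier libraries, a rise of 0.76 (SE 0.08, edgeR adjusted p = 3.97e-07). The difference was -0.70 (SE 0.12, edgeR adjusted p = 0.0356). The unnamed transcript 1700040D17Rik is expressed near the detection limit. It had 0.356, 0.219 and 0.258 CPM on day 10 in defeated mice against 0.624, 0.795 and 1.48 before, and 0.847, 1.04 and 0.716 CPM in controls against 0.462, 0.539 and 0.715. It fell in defeated mice by 1.65 (SE 0.29, edgeR adjusted p = 0.000112), its change in controls was 0.65 (SE 0.25, edgeR adjusted p = 0.0548), and the difference was -2.30 (SE 0.38, edgeR adjusted p = 0.0356). Each of the 3 differences kept its sign in 28 other fits and left-out libraries and missed the threshold in 20 of them for Egr1, 19 for Podxl and 21 for 1700040D17Rik. Shares over all genes tested were 15.4% higher and 17% lower in controls, and 21.5% and 19.7% in defeated mice. Endothelial markers, a list that includes Podxl, had 10 of 20 higher and 2 lower in controls and 3 and 2 in defeated mice. Podxl itself counts among the 10. Their mean log2 CPM was 4.64 to 4.67 in day 10 controls, 4.09 to 4.3 and 4.22 to 4.42 in controls of days 4 and 7, and 4.54 to 4.73 in defeated mice on day 10. The part of these markers in the difference was not tested.

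Among positive differences, the next in order of p, short of the threshold, were the cytosolic co-chaperone Dnajb1 at 0.62 (edgeR adjusted p = 0.0588) and the ubiquitin ligase Marchf9 at 0.57 (adjusted p = 0.142). Dnajb1 had 60.3, 62.3 and 62.6 CPM on day 10 in defeated mice against 49.6, 55.5 and 69 before and was not called, at 0.13 (SE 0.08, edgeR adjusted p = 0.177). In controls it had 134, 104 and 113 CPM on day 4, 56.3, 64.3 and 52.3 on day 7 and 62, 58.4 and 55.3 on day 10, so that days 7 and 10 lie close together and day 4 above both. Between days 4 and 7 in controls, a comparison added after seeing the data, 12 genes were called (0.0664%), 2 higher (0.0111%) and 10 lower (0.0554%) on day 7, with 1185 (6.56%) at an unadjusted p under 0.05. Dnajb1 and Egr1 are among the 10, at -1.02 (SE 0.09, edgeR adjusted p = 3.60e-06) and -0.73 (SE 0.12, edgeR adjusted p = 0.0114).

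In all, 9 genes were called in opposite directions in the 2 groups, and are named for that after their values were seen. Egr1, Egr2, Per1, the clock repressor Ciart, the cold-inducible RNA-binding protein Rbm3, the phospholipase Pla2g4e and Fam217b were higher in defeated mice and lower in controls. Ciart was at 0.38 and -0.50, and Rbm3 at 0.30 and -0.27, on the log2 scale. The collagen gene Col4a1, at -0.25 and 0.22, and the transcription factor Creb5, at -0.67 and 0.71, went the other way. Of the 9, Egr1 alone passed the test of the difference in edgeR, the others having adjusted p-values from 0.157 to 0.202. In DESeq2, 6 of those 8 passed as well, with adjusted p-values of 0.00180 for Creb5, 0.00625 for Per1, 0.0164 for Ciart, 0.0252 for Pla2g4e, 0.0270 for Egr2 and 0.0365 for Rbm3, and with no filter on low counts Creb5 and Per1 passed in edgeR (adjusted p = 0.0431 each).

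**Figure D4:**
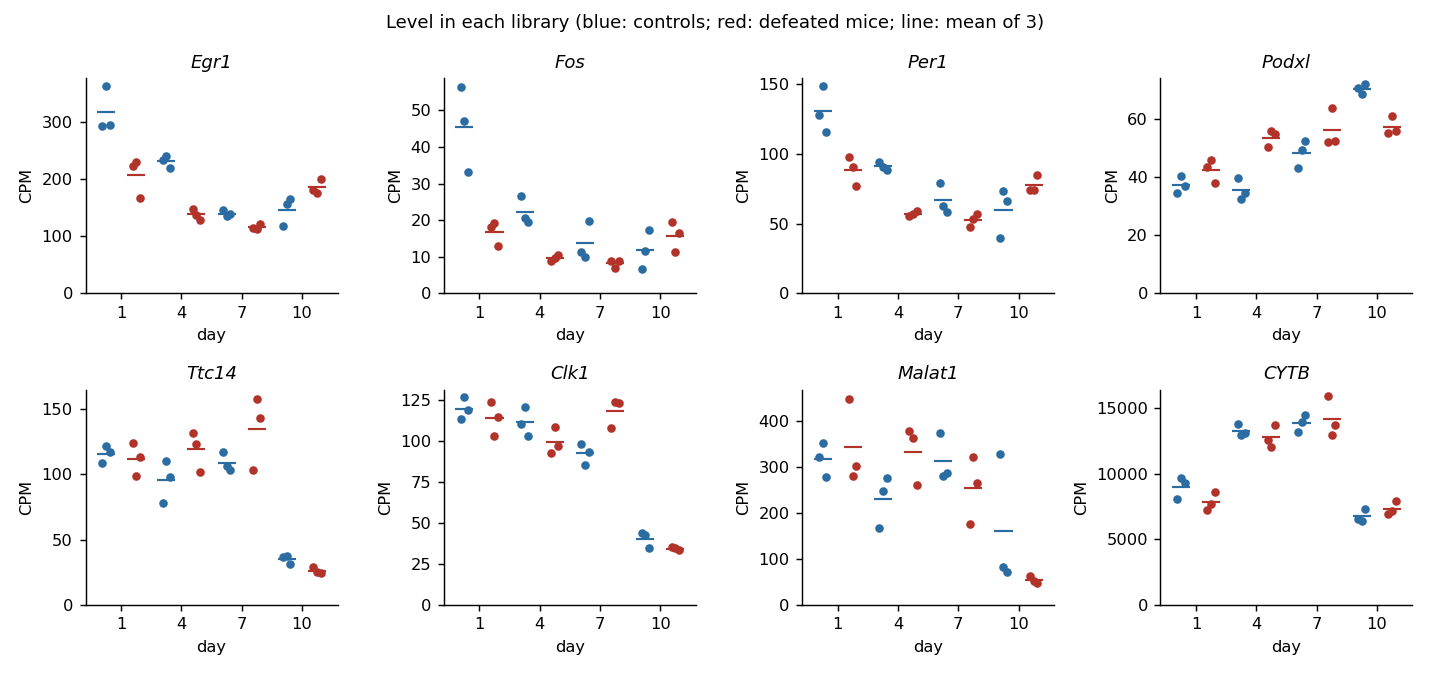
CPM of 8 genes in every library by day, controls in blue and defeated mice in red, with lines at the mean of 3 and the vertical axis starting at 0. Egr1, Fos and Per1 are highest on day 1 in controls, Podxl is highest in day 10 controls, and Ttc14, Clk1 and CYTB are low on day 10 in both groups.

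More genes of splicing control were called lower than higher in both groups. Of 26 splicing kinases and SR factors tested, 20 were lower and 1 higher in defeated mice, with a median of -0.37, and 15 lower and 0 higher in controls, with a median of -0.27. Clk1, a kinase that phosphorylates SR splicing factors, had 35.2, 34.4 and 33.4 CPM on day 10 against 92.8, 108 and 124 before, a change of -1.66 (SE 0.08, edgeR adjusted p = 3.41e-11). In controls it had 44, 42.3 and 34.8 CPM on day 10 against 85.5, 101 and 121, a change of -1.33 (SE 0.08, edgeR adjusted p = 3.47e-10). Day 10 lies below all earlier libraries in both groups, and the difference was -0.33 (edgeR adjusted p = 0.322). Its relative Clk4 fell by 1.28 (SE 0.10, edgeR adjusted p = 3.04e-09), the U1 snRNP-associated Luc7l3 by 1.56 (SE 0.10, edgeR adjusted p = 1.92e-10) and Pnisr by 1.53 (SE 0.12, edgeR adjusted p = 3.10e-09). Rbm39, a splicing cofactor, had 123, 126 and 126 CPM against 248, 288 and 327, a fall of 1.21 (SE 0.06, edgeR adjusted p = 3.41e-11). The list has a median GC content of 44.4%, and 15 were lower with the GC trend removed.

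The 8 largest falls that met the naming rule came from genes of several kinds. Malat1, a long noncoding RNA kept in nuclear speckles, had 62.4, 52.4 and 47.3 CPM on day 10 against 177, 294 and 378, with no overlap and a change of -2.43 (SE 0.37, edgeR adjusted p = 2.75e-05). In controls replicate 1 of day 10 had the highest of 3, at 328, 83.2 and 70.3 CPM, and the group's change was not called, at -0.75 (SE 0.34, edgeR adjusted p = 0.0978). That library is the one that stood apart above. The imprinted Kcnq1ot1 fell by 2.45 (SE 0.23, edgeR adjusted p = 5.02e-08), and Neat1, the RNA of paraspeckles, and Snhg11, both named after their values were seen, by 1.37 (SE 0.26, edgeR adjusted p = 0.000243) and 1.60 (SE 0.22, edgeR adjusted p = 6.27e-06). Ttc14, a tetratricopeptide protein, had 29.3, 25.1 and 24.5 CPM against 102, 128 and 158, a fall of 2.27 (SE 0.13, edgeR adjusted p = 8.55e-11), and 36.8, 37.2 and 31.6 CPM in day 10 controls against 78.3, 105 and 117. The fibrillar collagen gene Col11a1 and the extracellular proteoglycan gene Aspn fell by 2.67 and 2.29, and the mucin gene Muc3a, the zinc finger gene Zfp991 and Gdap10 by 2.52, 2.30 and 2.20 on the log2 scale.

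Chromatin and RNA regulators were among the genes with the smallest p-values for a fall. Atrx, a chromatin remodeller, had 112, 103 and 115 CPM on day 10 against 236, 241 and 256, a change of -1.14 (SE 0.06, edgeR adjusted p = 3.41e-11), and -1.04 (SE 0.06, edgeR adjusted p = 1.19e-10) in controls. Nipbl, the cohesin loader, fell by 0.85 in defeated mice and by 0.85 in controls, and Phip by 1.30 and 1.23. Zfp638, Zfp62, Thoc2l, which may share reads with its relative Thoc2, the actin-binding Ccdc88a and Pcmtd1 fell by 1.10, 1.42, 1.54, 1.43 and 0.98. Of 40 chromatin and long-transcript regulators, 13 were lower and 6 higher in defeated mice (median -0.14) and 20 and 3 in controls. In defeated mice 8 were lower without replicate 2 of day 10, and 20 lower and 3 higher without replicate 3. In controls 1 was higher without replicate 2 or 3 of day 10 and 5 without replicate 1. With the trend on gene length removed the split turned, to 14 higher and 5 lower, with a median of 0.09. Chd9 fell by 0.61, Med13 by 0.54, Kmt2e by 0.47 and Setd2 by 0.37. Of 346 tested genes with a Zfp symbol, a family of zinc finger transcription factors, 176 were lower and 29 higher in defeated mice and 179 and 18 in controls, 155 of them lower in both. Their median GC content is 45.3%, against 50.4% for other coding genes, and with the GC trend removed 115 were lower and 7 higher.

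Most transcripts encoded by mitochondrial DNA fell, while most nuclear genes of the same respiratory chain rose. CYTB, a subunit of complex III, had 6920, 7174 and 7892 CPM on day 10 against 12020, 13340 and 15940, a change of -0.88 (SE 0.09, edgeR adjusted p = 1.08e-07), and 6554, 6426 and 7312 CPM in controls, a change of -1.01 (SE 0.09, edgeR adjusted p = 2.87e-08). ND4, ND5 and ND1, subunits of complex I, fell by 0.87, 1.03 and 0.71. In all, 9 of 13 were lower and 0 higher in defeated mice and 11 and 0 in controls, and mitochondrial RNA made 3.28 to 4.48% of counts on day 10, 6.11 to 7.66% on days 4 and 7 and 3.87 to 4.92% on day 1. Of 74 nuclear genes of oxidative phosphorylation, 53 were higher and 5 lower in defeated mice (median 0.27) and 46 and 3 in controls. Ndufa10 of complex I rose by 0.40 (SE 0.05, edgeR adjusted p = 1.03e-06), Cox4i1 of complex IV by 0.43 (SE 0.05, edgeR adjusted p = 2.46e-06), Uqcrc1 of complex III by 0.38 (SE 0.05, edgeR adjusted p = 2.73e-06) and Atp5e of the ATP synthase by 0.48 (SE 0.06, edgeR adjusted p = 4.13e-06). Without control replicate 1 of day 10 the control split was 26 higher and 9 lower, and with 1 library left out 2 to 6 were lower in defeated mice.

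Most ribosomal protein genes rose too. Of 77, 57 were higher and 1 lower in defeated mice (median 0.26) and 49 and 2 in controls, and 38 and 1 in defeated mice with the GC trend removed. Rps2 of the small subunit rose by 0.43 (SE 0.05, edgeR adjusted p = 1.31e-06) and Rpl28 of the large subunit by 0.45 (SE 0.05, edgeR adjusted p = 1.53e-06). Eif3f, of the initiation factor that loads the small subunit, had 137, 145 and 139 CPM against 92.8, 97.2 and 103, a rise of 0.53 (SE 0.04, edgeR adjusted p = 1.23e-08) with no overlap, and 0.45 in controls, and the elongation factor Eef1g rose by 0.39 and 0.36. Tmbim6, an inhibitor of cell death in the endoplasmic reticulum (ER) membrane, had the smallest p among rises, with 442, 474 and 439 CPM against 308, 311 and 320.0, a change of 0.53 (SE 0.04, edgeR adjusted p = 1.09e-08), and 0.51 in controls. Pdk2, a kinase that restrains pyruvate dehydrogenase, rose by 0.52 and 0.49, Pigs by 0.47 and 0.42, and Map7d1 by 0.45 and 0.35. The Arp2/3 subunit Arpc4, Rhbdd2, Irf2bp1 and Wbp11 rose by 0.54, 0.42, 0.55 and 0.43 in defeated mice.

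More proteasome genes were called higher than lower in defeated mice. Of 35, 18 were higher and 3 lower in defeated mice and 13 and 3 in controls, where 5 were higher and 8 lower without replicate 1 of day 10. The catalytic subunit Psmb5 rose by 0.45 and the activator Psme3 by 0.34, while the activator Psme4 and the ATPase Psmc6 fell by 0.69 and 0.81. Psmc6 missed the threshold in 1 of 18 other fits and left-out libraries, over which its change ran from -0.898 to -0.0731.

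More receptor and channel genes of neurons were called lower than higher. Of 36 glutamate and GABA receptor genes, 15 were lower and 6 higher in defeated mice (median -0.12) and 19 and 1 in controls. Gabra2, an alpha subunit of the GABA-A receptor, had 35.8, 34.4 and 37.5 CPM against 83.1, 90.6 and 103, a fall of 1.34 (SE 0.12, edgeR adjusted p = 3.26e-08), and Gabrb2 fell by 0.85. The AMPA receptor subunits Gria2 and Gria3 fell by 0.84 and 0.62. The list has a median GC content of 46.5%, and 5 were lower and 0 higher with the GC trend removed. Of 34 voltage-gated channel genes, 12 were lower and 3 higher, and 4 and 9 with the length trend removed. The sodium channel Scn3a and the potassium channels Kcna4 and Kcnb2 fell by 0.82, 0.84 and 0.69, and Hcn2, of the pacemaker current, rose by 0.54.

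Receptors of stress and social peptides included 11 lower and 5 higher of 33 in defeated mice, against 6 and 2 in controls. In defeated mice 7 were lower without replicate 1 of day 10 and 3 higher without replicate 2, and in controls 3 were lower without replicate 1 of day 10. The mu and kappa opioid receptors Oprm1 and Oprk1 fell by 1.14 (SE 0.19, edgeR adjusted p = 5.56e-05) and 1.10 (SE 0.25, edgeR adjusted p = 0.00122), the orexin receptor Hcrtr2 by 0.92 and the neuropeptide Y receptor Npy1r by 0.77. Among 20 septal neuropeptides 2 were higher and 2 lower, and 4 were higher without defeated replicate 1 of day 7. Sst, somatostatin, had 159, 174 and 148 CPM on day 10 against 95.1, 116 and 125, a rise of 0.50 (SE 0.11, edgeR adjusted p = 0.00118), and Pnoc, the nociceptin precursor, rose by 0.66 (SE 0.12, edgeR adjusted p = 0.000171). Tac1, the substance P precursor, and Penk, the enkephalin precursor, fell by 1.29 (SE 0.37, edgeR adjusted p = 0.00823) and 0.69 (SE 0.24, edgeR adjusted p = 0.0245), and both are also striatal genes.

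Striatal markers were called lower more than higher, counting Tac1 and Penk, which are on that list. Of 14, 9 were lower and 0 higher in defeated mice (median -0.76) and none was called in controls, while no member passed the test of the difference, whose median was -0.44. Rgs9, a signalling regulator of striatal neurons, had 36.1, 28.3 and 33.6 CPM on day 10 against 56.4, 77.9 and 128, a fall of 1.31 (SE 0.32, edgeR adjusted p = 0.00222), and the dopamine receptor Drd1 fell by 1.09 and Rarb by 0.91. The mean log2 CPM of the list was 4.04 to 4.51 on day 10 in defeated mice against 4.83 to 5.63 on day 4 and 4.76 to 5.16 on day 7, and 3.95 to 5.34 in day 10 controls. Without defeated replicate 2 of day 10 there were 4 lower, and without replicate 1 of day 10, replicate 2 of day 4 or replicate 3 of day 7 there were 5. How much of the neighbouring striatum each dissection held was not tested. Of 17 lateral septum neuron genes, 7 were higher and 3 lower in defeated mice (1 lower without replicate 1 or 2 of day 10 and 5 without replicate 3) and 2 and 3 in controls, with Zic2 rising by 0.62, Prdm12 by 0.59 and Slc32a1 by 0.41. In bulk tissue, fewer cells of a type and less RNA per cell cannot be told apart. The cholinergic markers Slc5a7 and Lhx8 of the medial septum fell by 1.14 and 0.68.

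Stress pathways gave mixed results. Shares over all genes tested were 21.5% higher and 19.7% lower in defeated mice, and 15.4% and 17% in controls. Among 46 ER chaperones and degradation genes 13 were higher and 4 lower in defeated mice (median 0.01), and 16 and 2 in controls. Without defeated replicate 2 of day 10, 7 were higher in defeated mice, and without control replicate 1 of day 10, 10 in controls. Manf, a secreted ER stress protein, had 41.5, 48 and 41.5 CPM on day 10 against 36.5, 42.6 and 50.1, with overlap and a change of 0.03 (SE 0.15, edgeR adjusted p = 0.905). The chaperone Hspa5 had 217, 274 and 248 CPM against 255, 326 and 385, a change of -0.42 (SE 0.17, edgeR adjusted p = 0.057) that missed the threshold, and Calr and Cdnf were at 0.10 and -0.03, not called. The ER genes Txndc5, Os9 and Syvn1 rose by 0.36, 0.37 and 0.35, and Edem3 fell by 0.41. Of 22 genes of the integrated stress response, 15 were higher and 3 lower in defeated mice and 9 and 3 in controls, and 4 and 1 in defeated mice with the GC trend removed. Without defeated replicate 3 of day 10, 9 were higher. Slc7a5 and Slc3a2, the 2 chains of an amino acid transporter, rose by 0.57 and 0.47, Sesn2 by 0.48 and Atf5 by 0.49.

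Cytosolic heat shock genes had 7 of 26 lower and 1 higher in defeated mice, beside 19.7% lower and 21.5% higher over all genes tested. Hsp90aa1, the inducible HSP90, had 575, 633 and 636 CPM against 1010, 1087 and 1206, a fall of 0.83 (SE 0.12, edgeR adjusted p = 1.94e-05), and Chordc1, Hspa4l and Dnajb4 fell by 0.91, 0.66 and 0.58. Each of these last 3 missed the threshold in 1 of 18 other fits and left-out libraries. Their smallest changes over those were -0.0826, -0.118 and -0.00962. Hspa1a, Hspa1b and Hspb1 were not called, at 0.15, -0.13 and -0.19. Of 28 glucocorticoid-responsive genes 9 were higher and 3 lower, and 6 and 5 in controls. The 3 lower became 0 without defeated replicate 1 of day 10, and 1 without replicate 2 of day 10 or replicate 3 of day 4, and the 6 in controls became 3 without replicate 2 or 3 of day 10 or replicate 2 of day 4. Hsd11b1, which regenerates active glucocorticoid, had 18.2, 20.5 and 26.6 CPM against 11.1, 12.4 and 14.6, a rise of 0.78 (SE 0.13, edgeR adjusted p = 7.91e-05), and Errfi1, Nfkbia and Mt1 rose by 0.35, 0.64 and 0.33, while the classic target Fkbp5 was at 0.18 (SE 0.09, edgeR adjusted p = 0.114). Clock genes had 8 of 19 higher and 6 lower in defeated mice and 1 and 8 in controls. The activator Clock and the repressor Nr1d2 fell in both, by 0.67 and 0.50 in defeated mice and 0.66 and 0.58 in controls. Per3 fell by 0.56 and Nr1d1 rose by 0.45 in defeated mice. The hour of collection is not given in the sources used here.

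**Figure D5:**
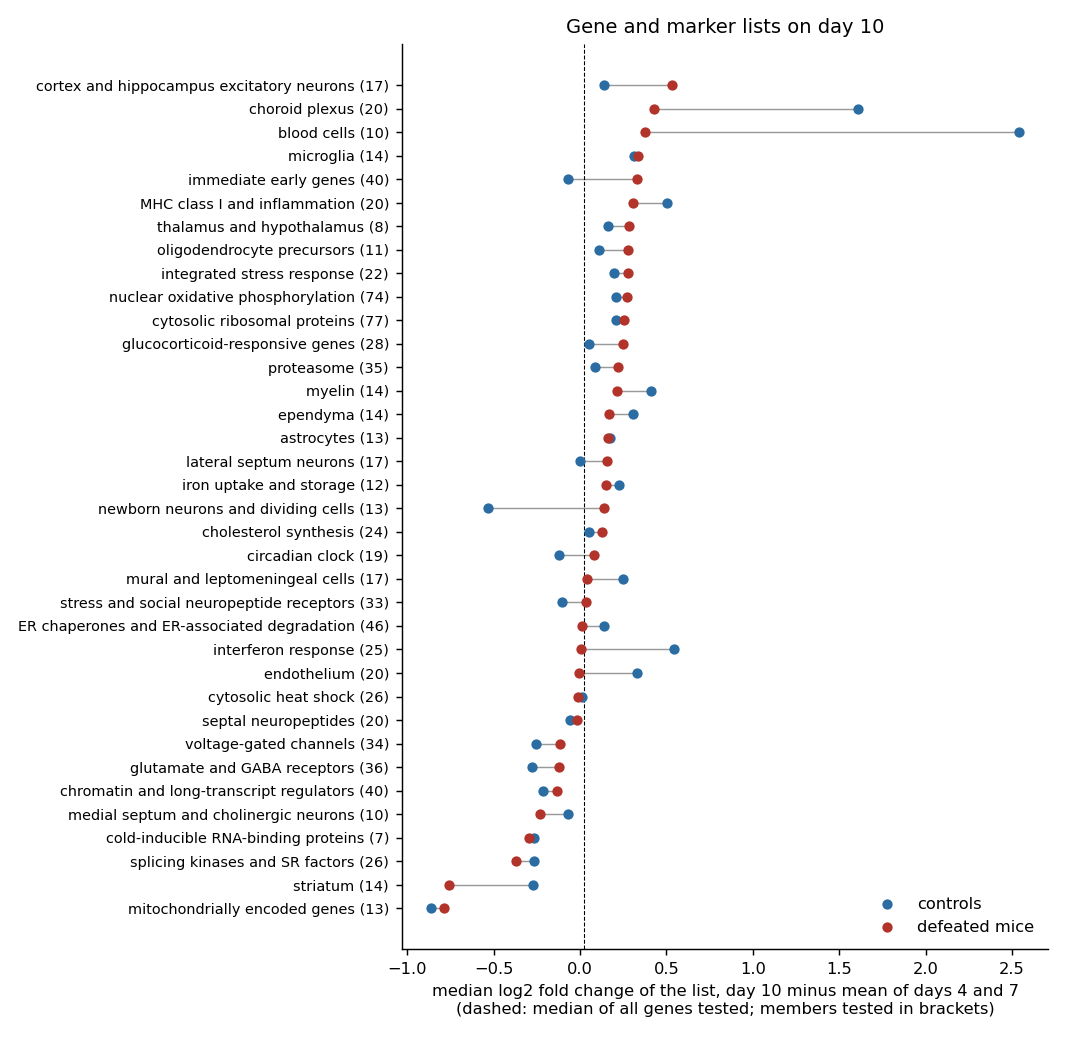
Median log2 fold change of 36 gene and marker lists on day 10 against days 4 and 7, with 1 point for defeated mice (red) and 1 for controls (blue) per list and the number of members tested in brackets. Immediate early genes lie at 0.33 in defeated mice and -0.07 in controls, and interferon genes at 0.00 and 0.55.

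Interferon genes gave 1 call in defeated mice and 10 in controls. Of 25, 0 were higher and 1 lower in defeated mice (median 0.00) and 10 higher and 0 lower in controls (median 0.55). All 25 had a negative difference, and none passed its test, with 9 at an unadjusted p under 0.05. The called member in defeated mice, Ifit2, fell by 0.42 (SE 0.14, edgeR adjusted p = 0.0213). The mean log2 CPM of the list was 1.64 to 1.97 on day 10 in defeated mice and 1.63 to 1.93 over days 4 and 7, against 2.15 to 2.68 in controls on day 10 and 1.4 to 2.31 before. Among controls, blood and choroid plexus markers also stood high on day 10, with 4 of 10 blood markers, all haemoglobin genes, called higher. Blood markers had a mean log2 CPM of 0.946 to 1.44 in day 10 controls, against -0.968 to 0.233 on day 4 and -0.986 to 0.206 on day 7. Choroid plexus markers had 4.88 to 6.26 in day 10 controls against 0.65 to 5.71 before. In defeated mice none of 20 choroid plexus markers was called, and blood markers had a mean log2 CPM of -0.16 to 3.19 on day 10 and 0.885 to 2.8 before, with Ptprc falling by 0.99 as the 1 called, against 6 lower without defeated replicate 2 of day 10. Their part in the interferon difference was not tested.

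Called genes of antigen presentation were all higher in both groups, and most called microglial genes were. Of 20 MHC class I and inflammation genes 9 were higher and 0 lower in defeated mice and 12 and 0 in controls, and 3 and 0 in defeated mice with the GC trend removed. Without defeated replicate 2 of day 10 there were 3 higher as well. H2-D1 rose by 0.45, Tapbp by 0.43 and B2m by 0.30, and Cd74, the MHC class II chaperone, had 5.01, 10.1 and 3.77 CPM against 1.45, 2.86 and 3.29, a rise of 1.27 (SE 0.31, edgeR adjusted p = 0.00254). Microglial markers had 9 of 14 higher and 1 lower, and 8 and 1 in controls, with C1qa, Itgam and Tmem119 rising by 0.48, 0.43 and 0.44. Of 13 astrocyte markers 5 were higher, among them Gfap at 0.66 (SE 0.14, edgeR adjusted p = 0.000693), Aldh1l1 at 0.41 and Aldoc at 0.34. Oligodendrocyte precursors had 7 of 11 higher and 1 lower, with Olig1, Cspg4 and C1ql1 rising by 0.33, 0.32 and 0.59 and the proteoglycan Vcan falling by 0.62. That count was 2 higher without defeated replicate 1 of day 10, 4 without replicate 2, 3 without replicate 3 and 4 without replicate 2 of day 7. Myelin genes had 3 of 14 higher and 2 lower, Mag rising by 0.49 and Ermn falling by 0.72. Over all genes tested 21.5% were higher and 19.7% lower in defeated mice, and the 3 higher lie near the first share. Leaving out defeated replicate 1 or 2 of day 10 gave 0 higher, and leaving out replicate 3 of day 7 gave 1. Of 13 genes of newborn neurons and dividing cells 4 were higher and 5 lower (2 lower without defeated replicate 1 or 2 of day 10, and 3 without replicate 1 of day 4 or of day 7), Dcx and Sox11 falling by 0.64 and 0.44 and Tubb2b and Dlx2 rising by 0.46 and 0.51.

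Iron genes had 5 of 12 higher and 3 lower in both groups (3 higher in defeated mice without replicate 2 of day 10), the storage chain Ftl1 rising by 0.36 and the reductase Steap3 by 0.56. Ireb2, which binds iron-responsive elements, and the transferrin receptor Tfrc fell by 0.32 and 0.23, and both turned with the GC trend removed, to 0.26 (edgeR adjusted p = 0.000101) and 0.29 (adjusted p = 0.00469). Cholesterol synthesis had 7 of 24 higher and 1 lower, and 1 and 3 in controls. Leaving out 1 library gave 3 (without defeated replicate 2 of day 10) to 9 higher in defeated mice and 1 to 3 higher and 1 (without replicate 2 of day 10) to 4 lower in controls. Its regulator Srebf2 rose by 0.39 and the enzymes Mvk and Dhcr7 by 0.39 and 0.29. Ependymal markers had 2 of 14 higher and 1 lower, Foxj1 rising by 0.50 and Dnah12 falling by 1.24. Mural and leptomeningeal cells had 2 of 17 higher and 1 lower (0 to 4 higher with 1 library left out), and the 8 thalamic and hypothalamic markers 1 and 1. Among 7 cold-inducible and related RNA-binding proteins 2 were higher and 4 lower, Hnrnph1 falling by 0.75 and Srsf5 by 0.36. The shares over all genes tested were 21.5% higher and 19.7% lower in defeated mice, and 15.4% and 17% in controls. The ependymal, mural and leptomeningeal, and thalamic and hypothalamic counts lie below the shares of defeated mice.

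The largest rises in defeated mice that met the naming rule were mostly in genes of low level. Apoh, a plasma phospholipid-binding protein, had 1.15, 1.31 and 0.568 CPM on day 10 against 0.187, 0.312 and 0.492, a rise of 1.60 (SE 0.49, edgeR adjusted p = 0.0126). Tmem114, the Wnt ligand gene Wnt10a and the tight junction gene Cldn3 rose by 1.11, 1.09 and 1.06. Adra1d, an alpha-1 adrenergic receptor, had 3.86, 5.55 and 3.69 CPM against 1.82, 2.1 and 2.48, a rise of 1.03 (SE 0.21, edgeR adjusted p = 0.000444), and the glycogen-targeting subunit gene Ppp1r3g rose by 1.00. In controls Adra1d, Wnt10a and Ppp1r3g were not called, at 0.44, 0.16 and 0.30, and none of the 3 passed the test of the difference.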

How the data were processed

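Per the labels, RNA was extracted from lateral septum with TRIzol, and directional poly(A) libraries were sequenced as 150 bp pairs on an Illumina NovaSeq instrument. The deposited table of raw read counts per gene was made by the authors with fastp, HISAT2 and HTSeq on GRCm39, per the submitters' processing notes, which give no versions or order. The deposited FPKM table, scaled by the authors for gene length and counted reads, supplied no expression values for tests. Set against the counts, it gave a length per gene. That length was used for the correlations with length and for the fit with the length trend removed.

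Counts were filtered with edgeR's filterByExpr by group and scaled by TMM. A quasi-likelihood model with 8 group means over 24 libraries (16 residual degrees of freedom) gave each contrast, with Benjamini-Hochberg adjustment over all genes tested and a call at an adjusted p under 0.05 (R 4.3.3, edgeR 4.0.16, limma 3.58.1, DESeq2 1.42.0). CPM are edgeR's after TMM, and log2 CPM used a prior count of 1. Totals per library limit the precision of low genes, and the SE covers the spread between libraries.

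GC content came from the longest coding transcript in GENCODE M21 (GRCm38), matched by symbol. Gene length was the one implied by the deposited counts and FPKM. Samples were grouped by title. Same-numbered libraries did not deviate together, with correlations from -0.693 to 0.473. Alternatives covered scaling, filters, a replicate block, tissue scores as covariates, length and GC trends, DESeq2, the 9 defeated libraries alone and each library left out.

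Genes are named by a rule. It takes the 8 largest folds and 8 smallest p-values in each direction among called genes with at least 1 CPM, an established symbol and no overlap of libraries, then the genes leading the difference and the shared calls, as many as 4 called members per list, and some set genes. For genes named by fold or p, the lack of overlap was a condition of naming and adds no support. Arc, Junb, Trib1, Nr4a1, Neat1, Snhg11, Lars2, Homer1 and genes called in opposite directions fall outside the rule, being picked with their values in view. The members and the gene lists were chosen with earlier results of these data known. Each count from a list is to be read beside the share over all genes tested, which is printed with only some of them. That share was 21.5% higher and 19.7% lower in defeated mice, and 15.4% and 17% in controls.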

Additional observations from a re-analysis of the deposited data

Results flagged for a closer look

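In 3 genes the change from days 4 and 7 to day 10 differed between defeated mice and controls in edgeR's test of the difference, each with an adjusted p of 0.0356. Egr1 differed by 0.85 on the log2 scale, Podxl by -0.70 and the low-level transcript 1700040D17Rik by -2.30. Egr1 was higher on day 10 in 3 of 3 defeated libraries than in all 6 of the earlier ones, Podxl in 3 of 3 control libraries, and 1700040D17Rik was lower in 3 of 3 defeated libraries. Without control replicate 1 of day 10, which stood apart, Egr1 differed by 0.71 (edgeR adjusted p = 0.118).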

How the results depend on the processing

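The counts called in defeated mice and in controls stayed within 1.5 times under every alternative except removal of the GC trend, chosen after seeing the data, which gave 4584 and 3434. Leaving out 1 library gave 5804 to 7138 in defeated mice, 4447 to 5811 in controls, 5025 to 5632 against day 4, 4491 to 5616 against day 7 and 0 to 0 for day 7 against day 4, where DESeq2 gave 1. The difference between the groups had 3 calls, 9 with no filter on low counts, 42 in DESeq2 (all 3 among them), and 0 with covariates, with the length trend removed and against day 7 alone (chosen after seeing the data). It had 0 to 4 with 1 library left out. The replicate numbers pair nothing by the check on correlations, and the replicate block gave 7207 calls in defeated mice, 5610 in controls, 6150 against day 4, 6013 against day 7, and 0 for the difference and for day 7 against day 4. The causes were not tested.

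Most log2 changes that turned sign belonged to genes that were not called. Ireb2, Tfrc and Slco1a4 were called lower in defeated mice and turned with the GC trend removed. Ireb2 and Tfrc were then called higher. With covariates Cdnf was at 0.145, Slc17a7 at -0.197 and Ttr at -0.0268. With the length trend removed Calr was at -0.0120 and Manf at -0.113. With the GC trend removed Cdnf was at 0.115, Dnajb1 at -0.00858, Hspa1a at -0.136, Ireb2 at 0.259, Manf at -0.0599, Nr4a1 at -0.0435, Podxl at -0.0561, Slco1a4 at 0.0247, Tfrc at 0.287 and the difference for Jund at -0.0803. In the 9 defeated libraries alone Manf was at -0.00491. With 1 library left out, Cdnf ran from -0.177 to 0.0907, Hspa1a from -0.0617 to 0.323, Hspa1b from -0.439 to 0.101, Manf from -0.0757 to 0.0635, Podxl from -0.0125 to 0.0915, Calr from -0.0141 to 0.143, Sostdc1 from -1.29 to 1.5 and Ttr from -5.53 to 3.28.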
